A study of Mus musculus with 16 samples.

Results

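The estrogen receptor-negative (ER-) luminal cells of nipple fragments were compared with those of terminal end bud (TEB) fragments of the pubertal mouse mammary gland. The cells were chosen by their own expression. Each of the 1317 cells within the quality limits, of 1419 deposited, took the marker list with the highest mean z-score, and the ER- luminal list held *Krt18*, *Elf5*, *Kit*, *Wfdc18*, *Ltf* and *Aldh1a3*. This list was taken by 203 cells, of which 108 came from nipple or TEB fragments. Fragments with at least 5 such cells were kept, which left 105 cells. The 4 nipple fragments N21, N22, N23 and N24 held 12, 12, 12 and 15 of them, 51 in all. The TEB fragments T31, T32, T33, T34 and T42 held 5, 10, 17, 12 and 10, 54 in all, and the remaining TEB fragment, T43, held 3 and was left out of the sums.

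The study dissected 4 nipple, 6 duct and 6 TEB fragments one by one from mammary glands of C57BL/6 mice 5 weeks old, with no treatment named. The study describes the mice of all locations as carrying *Krt14*-Cre and the Rosa26-mTmG reporter, its dissection methods also name wild-type mice, and the labels give the strain only. The keratin 14 promoter drives Cre in basal epithelium, and the reporter color was not used here. Single cells were sorted into plates and profiled by a SMART-seq method that reads the end of each transcript with unique molecular identifiers (UMIs) and ERCC spike-in RNA. The labels do not name the mouse of a fragment, so each p-value below measures the spread between fragments, which may come from few animals.

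ER- luminal cells face the lumen of the duct, lack the estrogen receptor and include the progenitors of the milk-secreting alveolar cells. The transcription factor *Elf5* and the receptor tyrosine kinase *Kit* are their usual markers. In puberty the TEB is the dividing tip that lengthens the duct into the fat pad, whereas the nipple holds the end of the main duct, where it meets the skin.

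The genes that chose the cells are given as a description only, in CPM, the summed UMIs of a fragment scaled to a common library total. *Wfdc18*, which encodes a secreted WAP-domain protein, stood at 12024, 12995, 10692 and 12077 CPM in the nipple fragments and between 5427 and 9082 CPM in the TEB fragments. *Aldh1a3*, a retinaldehyde dehydrogenase, ranged from 1008 to 1691 CPM in nipple and from 58.9 to 720 CPM in TEB. *Ltf*, the iron-binding milk protein lactoferrin, ranged from 1088 to 1979 CPM in nipple and from 238 to 370 CPM in TEB. The defining marker *Elf5* was sparse in nipple members, at 3.6 to 12.95 CPM against 23.5 to 104 CPM in TEB members. *Elf5* had a UMI in 8 of 51 nipple members and 29 of 54 TEB members, and in 0 of 101 nipple and 0 of 77 TEB basal cells. *Kit* stood at 36.2 to 125 CPM in nipple and 81.0 to 200 CPM in TEB. Thus the label rests in the nipple mainly on *Wfdc18*, *Ltf*, *Aldh1a3* and *Krt18*.

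Basal keratins of the class rule were not absent from the members. *Krt14* stood at 2867, 1809, 1659 and 1492 CPM in nipple members. In TEB members it was at 624 CPM in T31 and at 2.3 to 74.9 CPM in the other 4 fragments. *Krt17* stood at 1143 CPM in T31, at 39.1 to 276 CPM in the other TEB fragments and at 86.8 to 258 CPM in nipple, and averaged 1912 CPM in TEB basal cells. The usual partner of *Krt14*, *Krt5*, stayed at 2.6 to 10.8 CPM in nipple and 0 to 23.6 CPM in TEB. The endothelial markers *Pecam1*, *Cdh5*, *Kdr* and *Emcn* were at 0 in every nipple and TEB fragment. No nipple or TEB member lay near the boundary of the class, a lead of under 0.1 z-score units over the second list. Across the series 2 duct cells lay just inside it and 8 cells just outside, with *Wfdc18* at 3796 and 2439 CPM and *Aldh1a3* at 1720 and 429 CPM on average. In sums over cells, fewer cells with a transcript and less of it per cell cannot be told apart unless the cells are counted.

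Several technical measures moved with location. Nipple members held fewer UMIs (median 20146 per cell against 37480.5 in TEB) and fewer genes (2238 against 3428), and the summed UMIs per fragment were 239637 to 434303 in nipple and 159394 to 867672 in TEB. Of the 10 fibroblast marker genes that the class rule did not use, 0 were at 0 in either location, and their summed level was 687 to 1210 CPM in nipple members and 94.4 to 259 CPM in TEB members. The nipple sum was 3.05% to 5.38% of the level in the fibroblasts of the same fragments. Among the tested genes of that list, 4 of 5 were called higher in nipple, with a median log2 of 3.10, and the expected carry-over was 52.8% to 105% of the nipple UMIs of those 4, an estimate that was itself set on fibroblast and myeloid genes. The myeloid, ER+ luminal and endothelial lists of such markers had 0 of 1, 0 of 4 and 0 of 1 called, the basal list 1 of 4 (*Cav1*, higher in nipple), and the lymphocyte and adipocyte lists had no gene tested. A mixed pattern, at least 10 UMIs each of *Krt5* and *Krt18* or at least 5 of *Krt18* with 5 of *Col1a1* or *Lyz2*, was found in 31 of 51 nipple members and 1 of 54 TEB members. RNA carried over from other wells was estimated at 5.01% to 10.1% of the nipple sums and 3.71% to 4.71% of the TEB sums. All 95 well barcodes in use occurred in more than 1 library, since every plate used the same set. The part of these measures in the results was not tested except where a value is given beside a result.

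UMI counts were summed per fragment and fitted with edgeR, and a gene was called at a Benjamini-Hochberg adjusted p under 0.05. Of 6593 genes tested, 213 (3.23%) were called between nipple and TEB, 141 (2.14%) higher in nipple and 72 (1.09%) higher in TEB. Of all calls 66.2% were thus higher in nipple, a share that was 36.4% without the cells of mixed pattern, where the median of all genes shifted by -0.31, and 52.8% with DESeq2. The values of nipple and TEB fragments did not overlap for 237 genes (3.59%) that were higher in nipple and 177 genes (2.68%) that were higher in TEB. Without the genes of the class rule, 136 were called higher in nipple and 71 higher in TEB. Of these 207, 154 had fragments that did not overlap, and 10 had at least 20% of their UMIs expected from other wells. The mean of the duct fragments lay between those of nipple and TEB for 182 of the 207. These genes were chosen because their nipple and TEB sums lie apart, which favors that outcome. The count therefore cannot show a gradient along the duct.

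Among the gene lists of function, S100 proteins, annexins and galectins held the largest share of called genes. Most S100 proteins and annexins bind calcium, and annexins and galectins act at membranes and the cell surface. Of the 24 tested genes of this list, 12 were called higher in nipple and 1, *Anxa6*, higher in TEB, a share of 54.2% against 3.15% of all genes tested outside the class rule. The median log2 difference of the list was 1.25, against -0.01 over those genes. *Lgals3*, the carbohydrate-binding galectin-3, stood at 5151, 6197, 4420 and 4445 CPM in nipple and at 1473, 924, 1218, 1065 and 533 CPM in TEB. The lowest nipple fragment was thus above the highest TEB fragment, and the log2 difference was 2.28 ± 0.19 (SE, edgeR adjusted p = 1.3e-08). *Lgals3* lies at chr14:47367751-47386160 (GRCm38). *S100a6*, on chr3:90612882-90624181, ranged from 6729 to 10139 CPM in nipple and from 2115 to 3859 CPM in TEB, a log2 difference of 1.44 ± 0.14 (edgeR adjusted p = 8.1e-08). *S100a10*, which pairs with annexin A2 at the membrane, ranged from 3788 to 4952 CPM in nipple and from 1069 to 1950 CPM in TEB (log2 1.47 ± 0.15, edgeR adjusted p = 9.8e-08). *Anxa1*, an anti-inflammatory annexin on chr19:20373428-20390944, ranged from 3409 to 5390 CPM against 1364 to 2228 CPM (log2 1.28 ± 0.17, edgeR adjusted p = 1.1e-05).

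Other members of the list, named after their values were seen, moved the same way. *Anxa2* averaged 3910 ± 518 CPM (SD, n = 4) in nipple and 1341 ± 278 CPM (SD, n = 5) in TEB. *S100a11* averaged 3183 ± 255 CPM against 1563 ± 373 CPM, *S100a16* 2289 ± 560 CPM against 959 ± 215 CPM, and *Anxa5* 1715 ± 324 CPM against 724 ± 135 CPM. Of the called members, *Anxa6* alone was higher in TEB, with 206 ± 119 CPM in nipple and 476 ± 83.8 CPM in TEB, and its fragments overlapped. Among the members not called, *Anxa9*, *Lgals7* and *Lgals9* also had a log2 difference below 0. Fibroblasts of the nipple fragments held *Lgals3* at 1232 to 1310 CPM and *S100a6* at 2508 to 3098 CPM, below the level in the nipple members. In fibroblasts of the TEB fragments that were fitted, *Lgals3* stood at 226 to 474 CPM and *S100a6* at 2196 to 3230 CPM. *Lgals3* was thus higher in nipple in fibroblasts too, without overlap, whereas *S100a6* overlapped. Without the cells of mixed pattern, which left 2 nipple fragments, 12 genes of the list were again called higher in nipple and the median was 1.34.

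**Figure D1:**
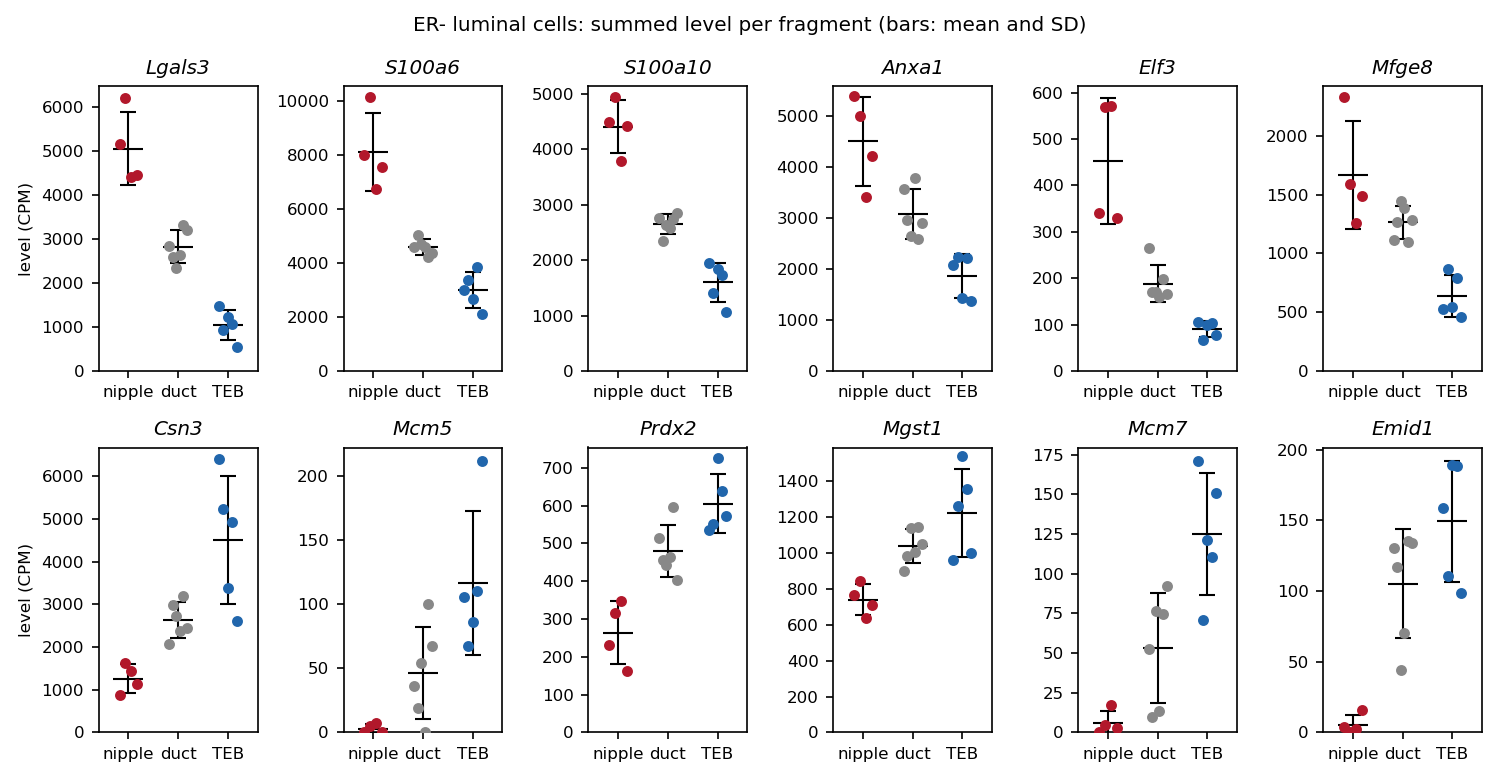
Level of 12 genes in ER- luminal cells (y axis, CPM of the summed UMIs, linear and starting at 0) in each nipple, duct and TEB fragment (points), with the mean and SD of the location as bars. For all 12 genes the nipple and TEB points do not overlap; *Lgals3* lies between 4420 and 6197 CPM in nipple and between 533 and 1473 CPM in TEB.

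The genes with the largest differences in favor of nipple were near 0 in TEB members. *S100g*, the calcium carrier calbindin-D9k on chrX:162961992-162964599, stood at 1269, 89.3, 832 and 90.7 CPM in nipple. It had 743 UMIs there and 0 UMIs in TEB, where 3 UMIs over the location would be 1.23 CPM, so it was at least 470-fold higher in nipple (edgeR adjusted p = 0.0019). *S100g* came from few cells: 11 of 51 nipple members had a UMI, and the cell with most held 28.5% of them. In nipple fibroblasts, which should lack it, 10 of 121 cells had a UMI, at a median depth of 37611 UMIs. After each cell was thinned to 5000 UMIs, these shares were 9 of 50 and 1 of 121. Its edgeR adjusted p was 0.34 without cycling cells, which left 3 TEB fragments, 0.10 with nipple and TEB fragments fitted alone and 0.15 when fragments with under 10 cells were dropped, while the fitted log2 difference, which is no bound with 0 UMIs in TEB, was 10.65, 10.87 and 11.03 against 10.97 as reported. *Kcne3*, a potassium channel subunit, had 121 UMIs in nipple and 0 in TEB, at least 76.5-fold higher, and came from 8 nipple members. *Tnfrsf11b*, the decoy receptor osteoprotegerin, had 72 and 0 UMIs, at least 45.5-fold higher in nipple. These UMIs came from 8 nipple members, and the cell with most held 41.7% of them. *Tnfrsf11b* also had a UMI in 23 of 121 nipple and 1 of 96 TEB fibroblasts, and averaged 27.4 CPM in nipple and 5.6 CPM in TEB basal cells. Without T42 the edgeR adjusted p of *Kcne3* was 0.0504, and without N24 that of *Tnfrsf11b* was 0.054.

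*Fcgbp*, a mucus-associated protein that binds immunoglobulin, was at 213, 89.3, 500 and 57.0 CPM in nipple. With 303 UMIs in nipple and 3 in TEB, the ratio of its rates was 192 (95% interval 65.0 to 935, counting error only). *Cxcl17*, a chemokine of mucosal surfaces, ranged from 127 to 231 CPM in nipple and from 0 to 11.8 CPM in TEB (log2 5.80 ± 0.79, edgeR adjusted p = 2.1e-05). *Cxcl16*, a membrane-bound chemokine, ranged from 276 to 372 CPM against 70.9 to 200 CPM (log2 1.53 ± 0.32, edgeR adjusted p = 0.0036). *Cxcl17* and *Cxcl16* were the 2 genes called among the 8 tested of the antimicrobial and mucosal defence list, against 3.23% of all genes. The median log2 of the list was 1.20. *Lcn2*, an iron-sequestering defence protein of the same list, averaged 2544 ± 820 CPM in nipple and 3055 ± 782 CPM in TEB and was not called (edgeR adjusted p = 0.64).

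Further genes with large differences were of varied function. *Anxa8* ranged from 148 to 406 CPM in nipple and from 0 to 23.6 CPM in TEB (log2 5.97 ± 0.80, edgeR adjusted p = 1.9e-05). *Tppp3*, which binds tubulin, ranged from 308 to 413 CPM against 2.6 to 94.3 CPM (log2 4.28 ± 0.74), but fibroblasts express it too, and carry-over from other wells would account for 14.03% of the UMIs it had in nipple members. *Tppp3* was also called higher in nipple in ER+ luminal cells (log2 2.82 ± 0.38, edgeR adjusted p = 1.4e-05) and in basal cells (4.94 ± 0.42, edgeR adjusted p = 1.1e-08). In ER+ luminal cells *Anxa8* was called higher in nipple as well (log2 3.71 ± 0.87, edgeR adjusted p = 0.0073). *Capsl*, a calcium-binding protein, ranged from 123 to 226 CPM against 0 to 18.2 CPM, and its difference of 4.28 ± 0.74 went to -0.24 (edgeR adjusted p = 0.947) without the cells of mixed pattern. *Cyp4b1*, a cytochrome P450, had 104 nipple UMIs and 1 TEB UMI, a ratio of 197 (95% interval 34.7 to 7869). *Pdzk1ip1* and *G0s2*, the latter an inhibitor of fat breakdown, averaged 109 ± 60.1 and 79.8 ± 55.6 CPM in nipple and 4.6 ± 8.5 and 2.5 ± 3.9 CPM in TEB. Without N21 *Pdzk1ip1* was not called (edgeR adjusted p = 0.076).

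Of 11 luminal progenitor genes tested, 3 were called higher in nipple and 0 in TEB, against 2.14% and 1.09% of all genes, with a median log2 of 0.63. *Elf3*, an epithelial ETS transcription factor, stood at 340, 568, 571 and 329 CPM in nipple and between 67.2 and 106 CPM in TEB (log2 2.32 ± 0.28, edgeR adjusted p = 4.6e-06). *Mfge8*, a milk fat globule protein that helps clear dying cells, ranged from 1263 to 2332 CPM against 463 to 864 CPM (log2 1.39 ± 0.19, edgeR adjusted p = 2.4e-05). *Lurap1l* was called with overlapping fragments (log2 1.26 ± 0.35, edgeR adjusted p = 0.039) and lost the call without N21, N22, N23, T33, T34 or T42, where the adjusted p was 0.060 to 0.15. With each cell thinned to 5000 UMIs *Lurap1l* was not called (edgeR adjusted p = 0.12). *Ehf*, another epithelial ETS factor, averaged 383 ± 99.0 CPM and 352 ± 83.4 CPM and was not called (edgeR adjusted p = 0.91).

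Genes of luminal keratins, adhesion and tight junctions were called higher in nipple for 4 of 28 tested and higher in TEB for 1. Of all genes 2.14% and 1.09% were called in these directions. The median log2 of the list was 0.60. *Krt7* ranged from 1565 to 1930 CPM in nipple and from 813 to 1182 CPM in TEB (log2 0.93 ± 0.16, edgeR adjusted p = 0.00032). *Epcam*, the epithelial adhesion molecule, ranged from 3338 to 4069 CPM against 1952 to 3165 CPM, a difference of 0.55 ± 0.13 (edgeR adjusted p = 0.016). The junction proteins *F11r* and *Cldn4* differed by 1.06 ± 0.26 and 0.81 ± 0.21 on the log2 scale, and the *Cldn4* fragments overlapped. *Cldn1* was called the other way, at 59.7 ± 39.7 CPM in nipple and 157 ± 27.5 CPM in TEB. Of the 13 tested squamous differentiation genes, 2 were called, both higher in nipple, against 2.14% of all genes, with a median log2 of 0.68. *Lypd3*, a membrane-anchored protein, differed by 1.51 ± 0.35 on the log2 scale, and N22 stood high at 1602 CPM. Several of these calls depended on single fragments. *Epcam* lost its call without N22, N24, T33 or T42 (edgeR adjusted p = 0.056 to 0.072), *F11r* without N21, N22, N24 or T42 (0.054 to 0.067), and *Cldn4* without any one of 7 fragments (0.0555 to 0.143). *Lypd3* lost its call without N22 or T42 (0.13 and 0.051). With each cell thinned to 5000 UMIs, *Epcam*, *Cldn4*, *F11r* and *Lypd3* were not called (edgeR adjusted p = 0.06, 0.11, 0.066 and 0.18). Without cycling cells, which left 3 TEB fragments, they were not called either (0.31, 0.23, 0.26 and 0.495).

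DNA replication genes were the densest group on the TEB side. Of 34 tested, 9 were called higher in TEB, against 1.09% of all genes, and 0 in nipple, and 31 of 34 had a negative log2 difference, with a median of -1.94. *Mcm5*, a subunit of the replicative helicase on chr8:75109569-75128439, stood at 106, 67.2, 86.6, 111 and 212 CPM in TEB and at 0, 4.7, 7.4 and 0 CPM in nipple (log2 -5.13 ± 0.96, edgeR adjusted p = 0.0013). *Mcm7*, of the same helicase, ranged from 70.6 to 171 CPM in TEB and from 0 to 17.2 CPM in nipple (log2 -4.17 ± 0.76, edgeR adjusted p = 0.0011). *Dut*, which clears dUTP, and *Ung*, which removes uracil from DNA, averaged 149 ± 119 and 50.4 ± 18.4 CPM in TEB and 20.2 ± 13.6 and 2.6 ± 3.7 CPM in nipple. *Rad50*, of the DNA break repair complex, averaged 106 ± 37.9 CPM in TEB and 11.2 ± 19.2 CPM in nipple. Neither *Ung* nor *Rad50* belongs to the list. Without cycling cells, which left 3 TEB fragments, the log2 difference of *Rad50* was -2.18 (edgeR adjusted p = 0.56). With nipple and TEB fragments fitted alone its edgeR adjusted p was 0.052. *Mcm6*, with overlapping fragments, differed by -1.89 ± 0.49. The mitosis list had 2 called of 29, both higher in TEB, with a median of -0.81. That median was -1.41 without N21, -1.28 without N23, -0.47 without N22 (1 call), -0.48 without N24 (0 calls), -0.44 without T42 (1 call) and -6.28 without the cells of mixed pattern (7 of 35 called). Of these, *Tubb5*, a tubulin, differed by -1.40 ± 0.32, and the mitotic kinase *Aurkb* had 0 nipple UMIs and 101 TEB UMIs, with 105 CPM in T42 and 0 CPM in T31 and T32. *Nek6*, another mitotic kinase, ranged from 40.3 to 60.5 CPM in TEB and from 0 to 12.95 CPM in nipple.

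The summed level of the DNA replication list was 871, 310, 1260 and 754 CPM in the nipple fragments and 1408, 1878, 3100, 2328 and 4790 CPM in the TEB fragments, with T42 the highest. Cycling cells, counted as at least 3 UMIs over *Mki67*, *Top2a*, *Cdk1*, *Ccnb1* and *Birc5*, were 3 of 51 nipple members and 20 of 54 TEB members. Of those in TEB, 8 were in T33 and 7 in T42. At an equal depth of 5000 UMIs cycling cells were 2 of 50 nipple and 9 of 54 TEB members, with 3 in T33 and 5 in T42. The replication calls depended on single fragments: 3 of 32 tested genes were called without T42, 2 of 35 without N24 and 4 of 35 without N21 or without N22. With the cycling cells left out, which also left only 3 TEB fragments with enough cells, 1 of 17 was called and the median was -1.45. Without the cells of mixed pattern 7 of 39 were called and the median was -3.89. With each cell thinned to 5000 UMIs, 2 genes of the list could be tested and 0 were called, with a median of -1.25. Among the named genes, *Mcm6* lost its call without N23, N24, T34 or T42 (edgeR adjusted p = 0.054 to 0.074), *Dut* without N24 or T42 (0.051 and 0.074), *Ung* without N21, N22, N23, T33 or T42 (0.063 to 0.081), *Nek6* without N21 or N22 (0.076 and 0.073), *Tubb5* without N24 (0.052) and *Aurkb* without any nipple fragment or T33 (0.051 to 0.093).

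**Figure D2:**
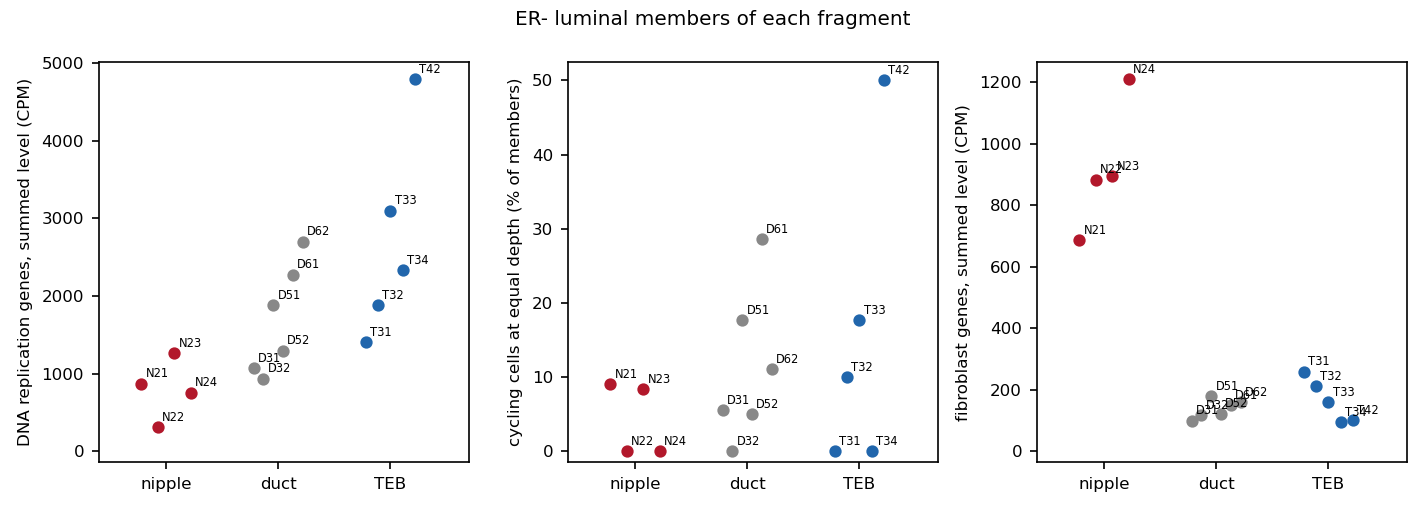
Summed CPM of 44 DNA replication genes (left), share of cycling members after thinning to 5000 UMIs (middle, percent) and summed CPM of 10 fibroblast genes (right) in the ER- luminal members of each named fragment. The replication sums of nipple (310 to 1260 CPM) lie below those of TEB (1408 to 4790 CPM), T42 is highest for replication and cycling, and the fibroblast sums of nipple (687 to 1210 CPM) lie above all others.

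Of 12 tested milk protein and secretion genes, 9 had a log2 difference below 0, with a median of -0.94, and 1 was called in each direction. Of all genes 2.14% were called higher in nipple and 1.09% higher in TEB. *Csn3*, kappa-casein on chr5:87925579-87932665, stood at 6398, 5224, 3376, 4927 and 2620 CPM in TEB and at 871, 1626, 1428 and 1127 CPM in nipple. The locations did not overlap, and *Csn3* was lower in nipple by a log2 difference of -1.83 ± 0.22 (edgeR adjusted p = 1.1e-05). Without the cycling cells, which left 3 TEB fragments, the log2 difference was -2.34 and the edgeR adjusted p 0.0575. It had a UMI in 51 of 54 TEB members and 20 of 51 nipple members, and in 50 of 54 and 15 of 50 after thinning. In TEB fibroblasts, which should lack it, 58 of 96 cells had a *Csn3* UMI before thinning and 15 of 96 after. *Btn1a1*, which coats the milk fat globule, went the other way, at 46.6 to 118 CPM in nipple and 0 to 9.8 CPM in TEB (log2 4.63 ± 0.91, edgeR adjusted p = 0.0020). *Trf*, the iron carrier transferrin, averaged 834 ± 669 CPM in TEB and 106 ± 118 CPM in nipple and was not called (edgeR adjusted p = 0.14).

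Enzymes against peroxides and electrophiles were called on the TEB side in 4 of 32 tested genes and on the nipple side in 0. Of all genes 1.09% and 2.14% were called on these sides. The median log2 of the list was -0.09. *Prdx2*, a peroxiredoxin, ranged from 536 to 726 CPM in TEB and from 163 to 347 CPM in nipple (log2 -1.20 ± 0.23, edgeR adjusted p = 0.0015). *Mgst1*, a microsomal glutathione transferase, ranged from 960 to 1544 CPM against 640 to 846 CPM (log2 -0.73 ± 0.17, edgeR adjusted p = 0.012). *Gpx1*, glutathione peroxidase, differed by -0.81 ± 0.21 with overlapping fragments, and *Gstm5* by -2.05 ± 0.57. *Gpx1* lost its call without N22, N23 or T34 (edgeR adjusted p = 0.054 to 0.096) and *Gstm5* without N21, N22, N24, T32 or T42 (0.081 to 0.12).

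The remaining genes with the largest differences toward TEB were of varied function. *Emid1*, an extracellular matrix protein, ranged from 98.8 to 189 CPM in TEB and from 0 to 15.5 CPM in nipple (log2 -4.57 ± 0.61, edgeR adjusted p = 1.8e-05). *Col9a1*, a collagen chain, averaged 62.8 ± 38.1 CPM in TEB and 2.6 ± 5.2 CPM in nipple. *Crispld2*, a secreted protein, ranged from 28.6 to 277 CPM in TEB and from 0 to 21.7 CPM in nipple (log2 -4.01 ± 0.72, edgeR adjusted p = 0.00084). *Cyp1b1*, which oxidizes steroids, averaged 80.5 ± 40.2 CPM in TEB and 5.8 ± 11.7 CPM in nipple. *Bex4* and *Cog2*, a Golgi subunit, averaged 84.8 ± 81.7 and 64.2 ± 50.2 CPM in TEB and 3.8 ± 4.7 and 3.1 ± 6.2 CPM in nipple. *Bex4* lost its call without T42 (edgeR adjusted p = 0.094) and *Cog2* without N21, N22, N24 or T31 (0.0625 to 0.0734).

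Ligands and receptors of the EGF, IGF, FGF, Wnt and Notch pathways yielded 1 call among 21 tested (4.76%), near the 3.15% of all genes tested outside the class rule. *Btc*, the EGF receptor ligand betacellulin, had 0 UMIs in nipple and 80 in TEB, at 35.3, 3.4, 28.1, 35.8 and 48.1 CPM in its fragments. It was at least 14.1-fold lower in nipple (edgeR adjusted p = 0.0066), where 3 UMIs over the location would be 2.34 CPM. *Areg*, another ligand of that receptor, averaged 201 ± 202 CPM in nipple and 195 ± 264 CPM in TEB (edgeR adjusted p = 0.99). The sterol and fatty acid list (23 tested) and the antigen presentation and interferon list (20 tested) had 0 calls, with medians of -0.42 and 0.36. Of 20 immediate early and heat shock genes, *Hspa8*, a constitutive chaperone, was called, at 555 ± 153 CPM in nipple and 908 ± 96.1 CPM in TEB, and lost its call without N21, N22, N24, T34 or T42 (edgeR adjusted p = 0.062 to 0.14). Cytosolic ribosomal protein genes had 1 call of 77 in favor of nipple (median 0.13) and nuclear oxidative phosphorylation genes 2 of 84 in favor of TEB (median -0.27).

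**Figure D3:**
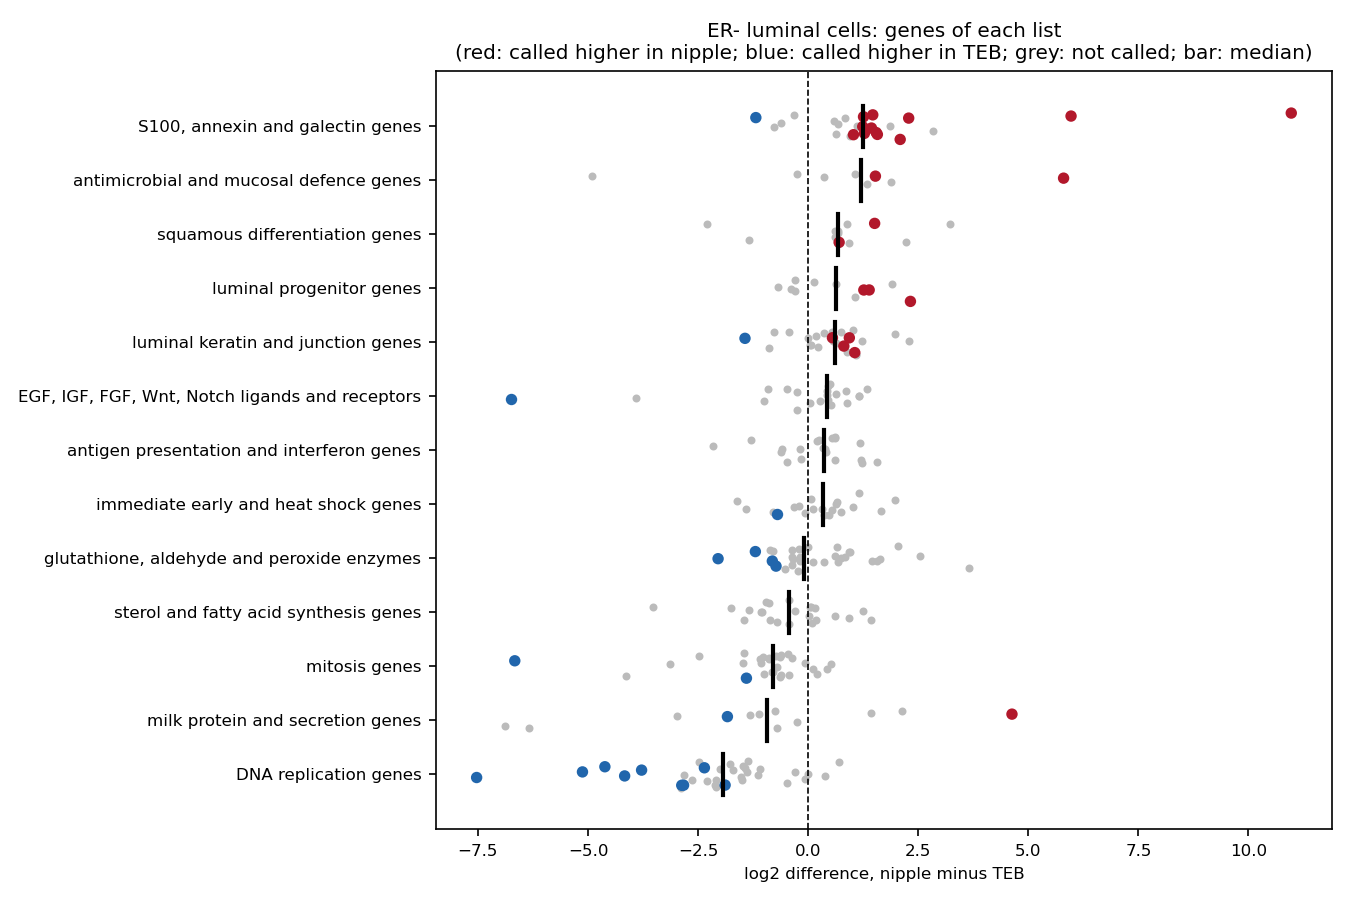
Log2 difference of nipple minus TEB (x axis) of each tested gene in 13 gene lists (rows) in ER- luminal cells, with called genes in red (higher in nipple) or blue (higher in TEB), other genes in grey, a bar at the median of the list and a dashed line at the median of all genes (-0.01). The S100, annexin and galectin list has the highest median, 1.25, and the DNA replication list the lowest, -1.94.

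Whether a difference was particular to the ER- luminal cells was asked with a class by location term, fitted with the fragment as a block. Against ER+ luminal cells, 160 of 8966 genes (1.78%) passed at an edgeR adjusted p under 0.05. Among the 136 nipple genes 64 passed this term, and among the 71 TEB genes 14 passed, in each case with the larger difference in the ER- cells. Both sets were chosen by their difference in the same ER- sums, which favors that outcome. These counts therefore cannot show how far the differences are particular to ER- cells. *Lgals3* averaged 2429 CPM in nipple and 2415 CPM in TEB in ER+ luminal cells, and the difference between the classes was 2.34 ± 0.19 (edgeR adjusted p = 4.5e-09). *S100a6* was lower in nipple than in TEB in ER+ luminal cells (3484 and 4734 CPM), and its term was 1.89 ± 0.15 (edgeR adjusted p = 2.9e-09). *Elf3* was called in opposite directions, with 137 CPM in nipple and 282 CPM in TEB in ER+ luminal cells (term 3.42 ± 0.40, edgeR adjusted p = 5.7e-07), and so was *Krt7* (1479 and 2369 CPM, term 1.64 ± 0.17, edgeR adjusted p = 8.7e-08). *Hspa8* was the reverse, higher in the nipple in ER+ luminal cells (1174 and 813 CPM, term -1.25 ± 0.21). *Btc* averaged 127 and 140 CPM in ER+ luminal cells, and its term passed toward TEB (edgeR adjusted p = 0.0023). No size is given, since the nipple ER- members had 0 UMIs. For *Csn3* the term was 0.93 ± 0.87 (edgeR adjusted p = 0.74), with 8.2 CPM in nipple and 62.2 CPM in TEB in ER+ luminal cells. The terms of *Anxa8* and *Tppp3* did not pass either (edgeR adjusted p = 0.39 and 0.36).

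Against basal cells, 144 of 8324 genes (1.73%) passed. Of the 136 nipple genes 16 passed with the larger difference in ER- cells and 4 with the other sign, and of the 71 TEB genes 8 and 1. Since these sets were chosen by their ER- difference, the same limit holds for these counts. *Mfge8* averaged 565 CPM in nipple and 893 CPM in TEB in basal cells, and its term was 1.95 (edgeR adjusted p = 3.0e-06). *S100a10* had a smaller difference in basal cells (3261 and 2282 CPM, term 0.92, edgeR adjusted p = 0.00033). *Gpx1* stood at 727 and 544 CPM in basal cells (term -1.27, edgeR adjusted p = 0.0052) and *Emid1* at 267 and 415 CPM (term -4.01, edgeR adjusted p = 4.4e-05). *S100a6*, *Mcm7* and *Csn3* differed in the same direction in basal cells, with log2 differences of 1.79, -3.34 and -3.92, and their terms did not pass (edgeR adjusted p = 0.52, 0.93 and 0.20). *Lgals3*, *Anxa1* and *Anxa8* were also higher in nipple in basal cells, by 0.87, 1.45 and 4.01. Their terms did not pass either (edgeR adjusted p = 0.19, 0.91 and 0.85). The nipple and TEB sums of the classes come from the same libraries.

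**Figure D4:**
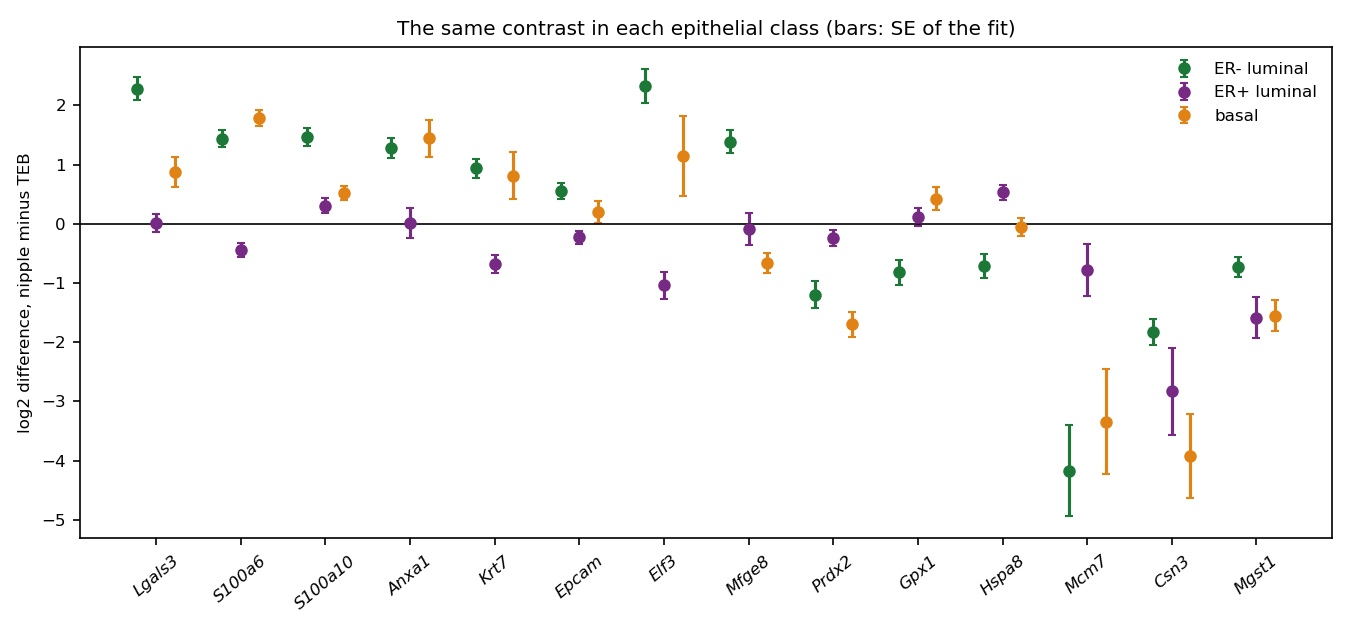
Log2 difference of nipple minus TEB (y axis, with the SE of the fit) of 14 genes in ER- luminal, ER+ luminal and basal cells of the same fragments. *Lgals3* differs by 2.28 in ER- luminal, 0.01 in ER+ luminal and 0.87 in basal cells. *Elf3* lies above 0 in ER- and below 0 in ER+ luminal cells, and *Csn3* lies below 0 in all classes.

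The genes that the study used to mark nipple and TEB basal cells were looked up in the ER- luminal members. *Tspan8*, a tetraspanin, ranged from 170 to 409 CPM in nipple and from 199 to 678 CPM in TEB members and was not called (log2 -0.31 ± 0.38, edgeR adjusted p = 0.77). In basal cells it averaged 239 CPM in nipple and 1.8 CPM in TEB, and the class by location term was -7.05 (edgeR adjusted p = 1.8e-06). *Slpi*, a secreted protease inhibitor, ranged from 18.1 to 460 CPM in nipple and from 5.6 to 156 CPM in TEB members (edgeR adjusted p = 0.79), with 2403 and 4.2 CPM in basal cells and a term of -9.19 (edgeR adjusted p = 0.016). *Csn3* was the 1 gene of this set that was called. *Mycn* had no UMI in nipple or TEB members, *Tbx2*, *Lgr5* and *Slc6a15* had 2, 1 and 12 in both locations together, and *Sfrp1* and *Ccdc129* were too sparse to be tested.

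Promoter sequences were searched on both strands for TGANTCA, a loose form of the AP-1 motif in which N is any base. The window ran from 250 bases before to 50 bases after the start site that RefSeq lists (GRCm38.p6). A promoter was listed for 4998 genes tested, 102 of the 136 nipple genes and 56 of the 71 TEB genes. The motif occurred in 20 of the 102 (19.6%), 2 of the 56 (3.57%), 236 of the 4998 (4.72%) and 7.93% of all 27025 promoters. The ETS core AGGAAG occurred in 34.3%, 28.6%, 31.9% and 35.15% in the same order, and the STAT motif TTCNNNGAA in 7.84%, 3.57%, 6.64% and 8.47%. A match is a stretch of letters and not a measured binding site. The matches of 6 nipple genes and of the TEB gene *Gstm5* are shown to let the flanks be compared, each 5′ to 3′ on the strand of the gene with the motif in capitals. *Anxa2* and *S100a11* were added to the named genes after their values were seen. The windows lie at chr7:100176623-100176649 (*Kcne3*, plus strand), chr4:115647874-115647900 (*Cyp4b1*, minus), chr5:134947158-134947184 (*Cldn4*, minus, the first of 2 matches), chr1:171437442-171437468 (*F11r*, plus), chr9:69453578-69453604 (*Anxa2*, plus), chr3:93520350-93520376 (*S100a11*, plus, the first of 2 matches) and chr3:107895668-107895694 (*Gstm5*, plus).
Kcne3: taaggtggtaTGAATCAgagtttctga
Cyp4b1: agctacatttTGAATCAtactctgtcc
Cldn4: tctaggctggTGACTCAgtgtctgtgt
F11r: ctgcgtacggTGAGTCActcatcggag
Anxa2: ccaagttggaTGAGTCAcccagcaggg
S100a11: agagacctgtTGAGTCAcagggactac
Gstm5: ctgtgcaacaTGACTCAcgcttcccgg

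The motif begins 95 bases before the start site in *Anxa2*, 109 in *F11r* and 136 in *S100a11*. Those 3 share the letters TGAGTCA, whereas *Kcne3* and *Cyp4b1* have TGAATCA. The shares above count every such form together and were not split by the middle letter. *Lgals3* and *S100a6* have no TGANTCA in this window, which says nothing of the factor. The genes that encode the AP-1 subunits *Fos* and *Jun* averaged 206 ± 158 and 1150 ± 308 CPM in nipple and 549 ± 244 and 729 ± 78.3 CPM in TEB, and neither was called (edgeR adjusted p = 0.28 and 0.066).

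In the share of luminal cells, the ER- class made up 48.0% to 63.2% in the nipple fragments and 7.50% to 34.7% in all 6 TEB fragments. Of all epithelial cells it made up 24% to 30% and 5.26% to 30.9%. These shares rest on the same marker rule and on how the cells were dissociated and sorted, and are given without a test.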

How the data were processed

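Per the labels and the study's methods, the authors used UMI-tools, Trim Galore, FastQC, STAR (mm10) and featureCounts, and deposited raw UMI counts per gene and cell. Tool versions are not given in the sources used here. Of 17788 rows, 67 are ERCC spike-ins (0.758% of UMIs). Each library held 1856140 to 5233120 UMIs over all its deposited cells, spike-ins included.

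Cells with at most 5% ERCC UMIs, 5000 to 120000 UMIs and 200 to 6000 genes were kept and classed by mean z-score of log counts (scale 10000) over 6 marker lists (basal, ER+ luminal, ER- luminal, fibroblast, myeloid, endothelial). No doublet caller was run; cells of mixed pattern had at least 10 UMIs each of *Krt5* and *Krt18*, or at least 5 of *Krt18* with 5 of *Col1a1* or *Lyz2*. Counts were summed per fragment and class and fitted with edgeR 4.0.16 in R 4.3.3 (TMM, filterByExpr, robust quasi-likelihood, all locations in 1 model, no block). The class by location terms had the fragment as a block. CPM use TMM-scaled totals. RNA from other wells was estimated as the share of 19 fibroblast and myeloid markers in a member over their share in all kept cells of the fragment (median over members), which takes members to lack these genes. The scripts were tested on simulated data. Python 3.11.15 and GENCODE M21 were used. DESeq2 1.42.0 was an alternative.

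The members, gene lists and motifs were chosen with earlier results of these data known. Named genes, outside the class rule, were the 12 largest called differences in each direction (no overlap, at least 50 CPM, under 20% expected from other wells), up to 4 called members of each list by level, and the study's basal signature genes. Other genes were named after their values were seen, and some that met the rule are not reported here. Antisense or overlapping genes were not separated, and intervals and floors cover counting error only.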

Additional observations from a re-analysis of the deposited data

Results flagged for a closer look

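In 15 of 98 groups of fragments over the 49 genes looked at, 1 fragment stood apart from the others by Dixon's criterion. Chance alone meets it in about 5 percent of groups of normally distributed values. That rate does not hold for sparse counts, since any value above 0 passes when all other fragments are at 0. This was so for *Cyp4b1* (1 UMI) and *Fcgbp* (3 UMIs) in T42, *Col9a1* and *Cyp1b1* in N24 and *Cog2* in N23. The count of 15 therefore cannot be set against 5 percent. In TEB, T31 stood high for *Cog2* (153 CPM), *Tppp3* (94.3 CPM), *Anxa8* (23.6 CPM) and *Cxcl17* (11.8 CPM), and T42 for *Bex4* (229 CPM), *Aurkb* (105 CPM), *Fcgbp* (3.90 CPM) and *Cyp4b1* (1.30 CPM). T34 stood high for *Pdzk1ip1* (19.5 CPM). In nipple, N21 stood high for *Pdzk1ip1* (199 CPM) and *Rad50* (39.8 CPM), N24 for *Col9a1* (10.4 CPM) and *Cyp1b1* (23.3 CPM) and N23 for *Cog2* (12.3 CPM), and N22 stood low for *Dut* (0 CPM). T31 was the fragment with the fewest members, 5 cells, and T42 the one with the highest replication sum.

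The difference of nipple minus TEB itself differed between cell classes for a set of genes, by the class by location term of edgeR. Against ER+ luminal cells it was larger toward nipple in ER- cells, on the log2 scale, by 7.53 for *Fcgbp*, 4.01 for *Cxcl17*, 4.34 for *Pdzk1ip1*, 3.80 for *Capsl*, 3.42 for *Elf3*, 2.34 for *Lgals3*, 2.29 for *Cxcl16* and 1.89 for *S100a6*. The *Fcgbp* term (SE 2.05, edgeR adjusted p = 0.049) rests on 3 UMIs in TEB ER- members, with 0.90 and 1.20 CPM in nipple and TEB ER+ cells. Its size is therefore poorly set. It was larger by 1.64 for *Krt7*, 1.35 for *Mfge8*, 1.32 for *Anxa1*, 1.28 for *F11r*, 1.20 for *S100a10*, 0.82 for *Cldn4* and 0.81 for *Epcam*. For *Btc* the fitted term was -7.34, which is no bound, since nipple ER- members had 0 UMIs. Toward TEB the other terms were -3.68 for *Mcm7*, -2.90 for *Gstm5*, -1.25 for *Hspa8*, -1.03 for *Prdx2* and -0.97 for *Gpx1*. Against basal cells the terms were 9.96 for *Cyp4b1*, 1.95 for *Mfge8*, 0.92 for *S100a10*, -1.27 for *Gpx1*, -4.01 for *Emid1*, -7.05 for *Tspan8* and -9.19 for *Slpi*. The *Cyp4b1* term (SE 2.36, edgeR adjusted p = 0.016) rests on 1 UMI in TEB ER- members, with 0.45 and 5.07 CPM in nipple and TEB basal cells. The size of this term is poorly set as well.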

How the results depend on the processing

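The number of genes called moved from 213 to 124 with each cell thinned to 5000 UMIs, 125 without cycling cells (3 TEB fragments left), 121 with nipple and TEB fragments fitted alone and 375 with DESeq2. Leaving out 1 fragment gave 134 (without N24) to 256 (without T31). Genes higher in nipple moved from 141 to 87 without the cells of mixed pattern and 91 with nipple and TEB alone, and ranged from 93 (without N24) to 153 (without T31) with 1 fragment left out. Genes higher in TEB moved from 72 to 152, 30 and 30 in the settings without mixed pattern, with thinning and without cycling cells, and to 177 with DESeq2, 124 without the low-count filter and 30 with nipple and TEB alone. With 1 fragment left out they ranged from 40 (without N22) to 103 (without T31), with 41 without N24 and 46 without T42. The basal term moved from 144 to 93 genes with thinning. The sign reversed for *Capsl* without the cells of mixed pattern (-0.24), for *Tspan8* without T31 (0.0077, range -0.55 to 0.0077 with 1 fragment left out) and for *Slpi* without N23 (-0.29, range -0.29 to 1.47). Of these genes, *Capsl* alone had been called. Other named differences kept their direction. *Lgals3*, *S100a6*, *S100a10*, *Anxa1*, *Elf3*, *Mfge8*, *Krt7*, *Tppp3* and *Prdx2* kept their calls in all 21 alternatives. The setting without mixed pattern left 2 nipple fragments and lost, among others, the calls of *Btc* (edgeR adjusted p = 0.121), *Mgst1* (0.154), *Kcne3* (0.0826) and *Cxcl16* (0.0773), and the cause of the other shifts was not tested. No paired analysis was possible because the nipple and TEB labels share no replicate number. Depth limits the sparse genes: 3 UMIs over a location are 2.34 CPM in nipple and 1.23 CPM in TEB.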

Other observations

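The TEB fragment T43 held 3 ER- luminal cells with 151932 UMIs and entered no fit. Its values, as CPM without scaling, were 454 for *Lgals3*, 3594 for *S100a6*, 2896 for *Csn3* and 59.2 for *Tppp3*. Of the 49 named genes that were called, T43 lay beyond every nipple fragment on the side of the TEB fragments for 40. The exceptions were *Col9a1*, *Bex4*, *Rad50*, *Nek6*, *Gpx1*, *F11r*, *Lurap1l*, *Btc* and *Aurkb*.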
